A study of Arabidopsis thaliana with 24 samples.

Results

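The microRNAs (miRNAs) of 2 organs were compared within 1 mutant of Arabidopsis thaliana: root tips of rh27-2 seedlings against shoot apices of rh27-2 seedlings, with 3 small RNA sequencing libraries per organ. Members were chosen by genotype and assay, which took 6 of the 24 libraries of the series. Earlier results of these data were known at that choice. The rh27-2 line carries a mutant allele of RH27, a gene for a DEAD-box RNA helicase, and every library of the comparison carries it. The nature of the lesion and the number of plants pooled per library are not given in the sources used here. Seedlings were sampled 5 days after germination on sucrose plates under long days. The 3 root tip and 3 shoot apex small RNA libraries of the wild type Col-0 served only to ask which organ differences the mutant keeps. Another 6 libraries, of rh27-2 mRNA from the same 2 organs, gave the levels of miRNA targets and precursors. Whether the 3 libraries of a group came from separate cultures is not stated, and the spread behind each p-value may therefore be technical.

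Plant miRNAs are cut from hairpin precursors by the Dicer-like enzyme DCL1, which leaves a duplex of a 5p and a 3p strand. One strand, the guide, is loaded into ARGONAUTE1 and directs cleavage or translational repression of mRNAs with a closely matching site, while the other strand is mostly degraded. Conserved families act on transcription factors that pattern meristems, leaves and roots, and many younger families are known only from Arabidopsis and its relatives.

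Of 253 entries listed in at least 1 rh27-2 library, 111 reached 30 reads per 30000000 reads (RP30M) in at least 3 of the 6 libraries and were tested. Root tips were higher for 73 entries (65.8%) and lower for 18 (16.2%), and 20 passed no threshold, by limma on log2(RP30M + 1) with a Benjamini-Hochberg adjusted p under 0.05. The median difference over all 111 entries was 2.56 on that log2 scale, root tips minus shoot apices. Fewer cells of a type and less RNA per cell cannot be told apart in such tissue samples. The direction depended in part on scaling. When libraries were scaled to equal miRNA reads the median moved by -0.13 and the counts were 74 higher and 24 lower, and with TMM scaling it moved by -1.63 and the counts were 56 higher and 37 lower. Called in the same direction under all 3 scalings were 56 higher and 18 lower entries, 66.7% of those tested. The 17 higher entries that lost their call had differences of 0.96 to 2.33 as deposited and of -0.68 to 0.69 with TMM scaling. Every higher entry of 2.56 or more and every lower entry held under the 3 scalings.

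The filter shaped these counts. Among 65 entries with at least 30 RP30M in all 6 libraries, 32 were higher in root tips, 14 were lower and 19 were not called. A further 41 entries reached that level in all 3 libraries of root tips alone and were all called higher, and 5 reached it in shoot apices alone, of which 4 were called lower. Passing the filter through 1 organ alone favours a difference, so these counts are no support for one. The values of the 2 organs did not overlap for 94 entries (84.7%), 75 of them with root tips above and 19 with root tips below.

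The libraries corresponded to 18030533, 15038765 and 15686531 reads in root tips and to 53934937, 10795610 and 38049871 in shoot apices. Listed miRNAs took 2.29%, 2.92% and 3.90% of reads in root tips, against 2.63%, 2.94% and 2.54% in shoot apices, a difference of 0.33 percentage points (two-sided exact permutation test, p = 0.7; 3 against 3 cannot go below 0.1). The organs overlap, and without root tip replicate 3 the difference was -0.098. Root tip replicate 3 held the highest of the root tip values for 94 of the 111 entries; over each left-out library of rh27-2 in turn the counts were 71 to 76 higher and 18 to 22 lower. Root tip libraries listed 216, 214 and 221 entries and shoot apex libraries 175, 136 and 161. After thinning all to 10795610 reads, root tips still listed 200, 206 and 208 entries, against 139, 136 and 134 in shoot apices. All 8 root tip marker genes were higher in root tips and the 6 tested shoot markers were lower (edgeR), while the stem cell genes CLV3 and WUS were too low to test at 0 to 0.374 CPM (counts scaled to library size) in root tips and 0.0714 to 1.36 CPM in shoot apices. For RH27 mRNA the TMM factors were taken over the libraries of both genotypes. It stood at 12.6, 14.9 and 13.8 CPM in root tips and at 25.7, 26.7 and 23.9 CPM in shoot apices of rh27-2. Wild-type root tips had 25.6, 24.5 and 21.8 CPM and wild-type shoot apices 34.6, 26.8 and 30.7 CPM.

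**Figure D1:**
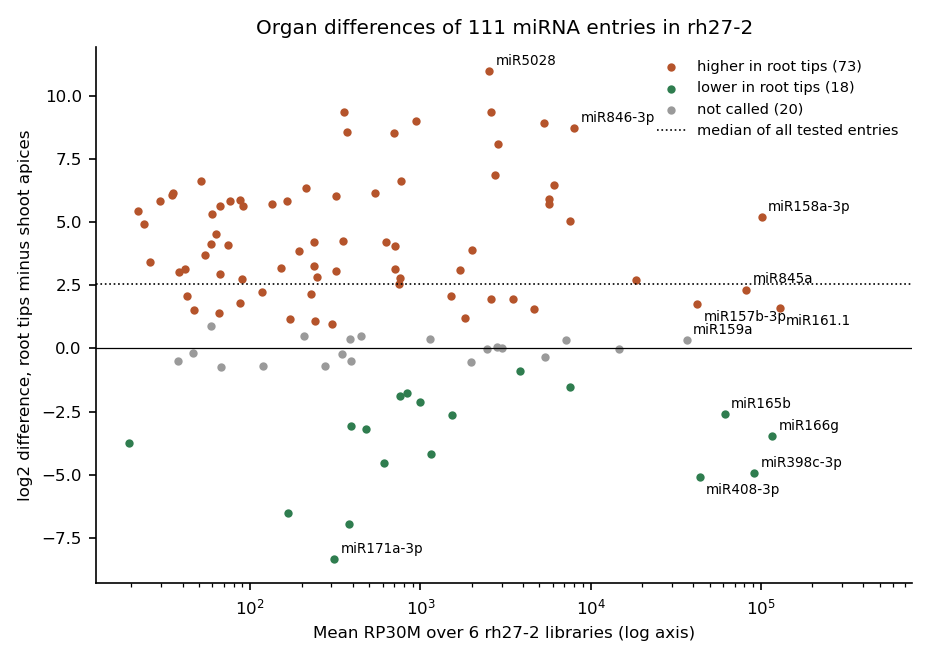
Each point is 1 of the 111 tested entries, placed by its mean RP30M over 6 rh27-2 libraries (log axis) and its log2 difference, root tips minus shoot apices, and coloured by its call. The 73 entries called higher reach 10.96, and the 18 entries called lower include miR166g, miR398c-3p, miR165b and miR408-3p at the abundant end.

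A few abundant entries gave most of the reads in either organ, and the leading ones were not the same. The 5 most abundant entries held 68.5% to 70.7% of miRNA reads in root tips and 78.9% to 79.7% in shoot apices. In root tips they were miR158a-3p, miR161.1, miR845a, miR157b-3p and miR159a. In shoot apices they were miR166g, miR398c-3p, miR165b, miR408-3p and miR161.1. The entry miR158a-3p, from a young family, had 148696, 157641 and 284160 RP30M in root tips, against 5799, 5024 and 4555 RP30M in shoot apices. The lowest root tip library stood far above the highest shoot apex library, with a difference of 5.20 ± 0.31 (SE) log2 units (adjusted p = 1.29e-48). The entry miR161.1, whose family targets pentatricopeptide repeat genes, had 139154, 194477 and 248072 RP30M in root tips and 68629, 61997 and 58956 RP30M in shoot apices. Its difference of 1.58 ± 0.31 was called as deposited and became -0.060, not called, with TMM scaling. For miR159a, the regulator of GAMYB-like transcription factors, root tips had 25956, 50380 and 48185 RP30M and shoot apices 32331, 31930 and 31672 RP30M. The organs overlap and the difference of 0.32 was not called (adjusted p = 0.329); it was called higher at 0.62 without root tip replicate 1 and lower at -1.32 with TMM scaling.

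Among called entries with a mean of at least 60 RP30M, the 10 largest root tip differences belonged to miR5028, miR846, miR829, miR167c, miR161.2 and miR158a-5p, most of them young families. The entry miR5028 had 4161, 4279 and 6789 RP30M in root tips, against 1.67, 0 and 4.73 RP30M in shoot apices. The organs lie far apart, at 10.96 ± 0.41 log2 units (adjusted p = 3.70e-51). The shoot apex values rest on few reads, since 1 read stands for 0.556, 2.78 and 0.788 RP30M in those libraries. Both strands of miR846, a family whose targets include jacalin-type lectin genes, followed the same direction. The 3p strand had 11527, 15063 and 21389 RP30M in root tips and 45.1, 33.3 and 31.5 RP30M in shoot apices, a difference of 8.70 ± 0.34. The 5p strand had 494, 497 and 1155 RP30M in root tips and no read in any shoot apex library. With a floor of 3 reads over the 3 shoot apex libraries, 0.876 RP30M, it was at least 817-fold higher in root tips. Of miR829, the 5p strand had 4787, 4826 and 5869 RP30M in root tips and 10.6, 5.56 and 5.52 RP30M in shoot apices, and 2 neighbouring 3p products differed by 6.86 and 8.52 log2 units. The star strand miR158a-5p had 5023, 6174 and 5810 RP30M in root tips and 21.1, 27.8 and 13.4 RP30M in shoot apices, or 8.08 ± 0.35 log2 units. All 10 were called under the 3 scalings.

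By the same rule the 10 largest differences in the other direction were led by both strands of miR171a and by miR157c-3p, followed by the copper-linked miR408-3p, miR398c-3p and miR398a-3p. The guide strand miR171a-3p, which targets the HAIRY MERISTEM (HAM) genes, had 0, 5.98 and 0 RP30M in root tips, against 703, 561 and 593 RP30M in shoot apices. These rest on 3 root tip reads and 2217 shoot apex reads, and the pooled rate in shoot apices was 351 times that in root tips, with an exact interval of 119.8 to 1701 at the 95% level that covers counting error only. Its partner miR171a-5p had 1.66, 5.98 and 11.5 RP30M in root tips and 780, 853 and 636 RP30M in shoot apices. Other products with the miR171 name ran the other way: miR171c-3p was 3.69 ± 0.51 and miR171b-5p 3.43 ± 0.47 log2 units higher in root tips. The entry miR398c-3p had 3554, 6072 and 8457 RP30M in root tips and 187183, 206987 and 136990 RP30M in shoot apices, or -4.94 ± 0.31 log2 units. The entry miR408-3p had 1735, 2500 and 3463 RP30M in root tips and 69677, 95761 and 88323 RP30M in shoot apices, or -5.09 ± 0.31. For both, the highest root tip value lay far below the lowest shoot apex value. The remaining 6 were miR157c-3p, miR398a-3p, miR156f-3p, miR166g, miR164c-5p and miR162b-5p, at -6.51 to -3.07.

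**Figure D2:**
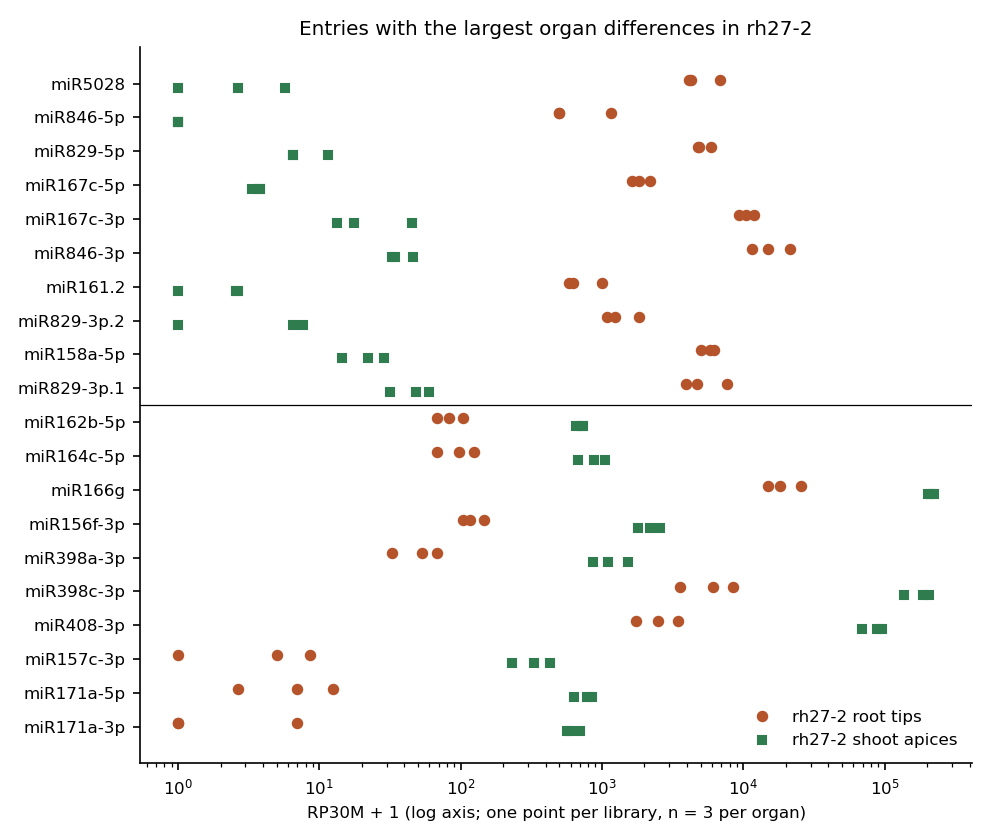
RP30M + 1 on a log axis for the 10 entries with the largest differences in each direction, with 1 point per rh27-2 library (circles, root tips; squares, shoot apices; n = 3 each). No entry has overlapping organs, and several shoot apex points of the upper block and root tip points of miR171a-3p and miR157c-3p lie at an RP30M of 0.

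Families of leaf polarity and meristem function had a lower summed level in root tips than in shoot apices, with no overlap between libraries. Of 11 tested entries of miR165, miR166, miR171 and miR394, 4 were higher in root tips, 5 were lower and 2 were not called, with a median of -0.16, against 65.8% higher, 16.2% lower and a median of 2.56 over all entries. Their summed level was 34620 to 57169 RP30M in root tips and 310843 to 349673 RP30M in shoot apices. The entries miR165b and miR166g target the HD-ZIP III genes that set the upper leaf face and the vascular pattern. In root tips miR166g had 15046, 18163 and 25600 RP30M, against 204193, 212881 and 224481 RP30M in shoot apices, a difference of -3.48 ± 0.31. In root tips miR165b had 13031, 16811 and 23542 RP30M, against 93964, 120869 and 98564 RP30M in shoot apices, a difference of -2.59 ± 0.31. The entry miR394b-5p, whose target LCR acts in shoot meristem maintenance, differed by 0.35 ± 0.35 and was not called.

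Nutrient-responsive families held entries of either direction. Of 9 tested entries, 4 were higher in root tips, 4 were lower and 1 was not called, with a median of -0.51, against 65.8% higher, 16.2% lower and a median of 2.56 over all entries. The summed copper-linked miR397 family was higher in root tips at 1.40 as deposited and turned to -0.35 with TMM scaling. It reached 30 RP30M in every library of root tips alone. The 4 lower ones were the copper-linked miR398a-3p, miR398c-3p, miR408-3p and miR408-5p. The higher ones were miR395e and miR395f, which act on sulfate assimilation, miR399c-3p, which acts on the ubiquitin-conjugating enzyme PHO2 of phosphate homeostasis, and miR169f-3p. The entry miR395e had 283, 329 and 476 RP30M in root tips and 21.7, 30.6 and 18.9 RP30M in shoot apices, or 3.87 ± 0.41 log2 units. The entry miR399c-3p had 1235, 1175 and 1369 RP30M in root tips and 89.6, 142 and 218 RP30M in shoot apices, or 3.15 ± 0.34. The call of miR395f was lost with TMM scaling, which gave -0.53. The phosphate-linked miR827 had 220, 387 and 377 RP30M in root tips and 435, 564 and 377 RP30M in shoot apices, and its difference of -0.51 ± 0.35 was not called as deposited (adjusted p = 0.163) but was called at -0.64 with scaling to miRNA reads and at -2.14 with TMM scaling.

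Auxin-linked families had 8 of 11 entries higher in root tips, 1 lower and 2 not called, near the 65.8% higher over all entries, with a median of 1.94 against 2.56 over all entries, and 5 of the 8 held under the 3 scalings. The entry miR167c-3p had 9288, 10481 and 11976 RP30M in root tips and 12.2, 44.5 and 16.6 RP30M in shoot apices, or 8.91 ± 0.35 log2 units. Its 5p partner, whose family cleaves the auxin response factors ARF6 and ARF8, had 1629, 1817 and 2173 RP30M in root tips and 2.78, 2.78 and 2.37 RP30M in shoot apices, 709-fold higher in root tips. That fold rests on few shoot apex reads and carries no interval. The other miR167 products behaved differently: miR167a-3p differed by -0.21 ± 0.35 and was not called as deposited, but was called at -1.84 with TMM scaling. The entries miR390a-3p and miR390b-3p, star strands of the family that triggers the trans-acting siRNAs of TAS3, were higher by 4.04 and 4.90 log2 units, the second on 75 root tip reads and 3 shoot apex reads. The guide miR390b-5p was higher by 1.94 as deposited and by 0.30, not called, with TMM scaling. The product miR393b-3p, of the family that acts on TIR1-type auxin receptors, was higher by 3.20 ± 0.41. The 1 entry lower in root tips was miR160c-5p, which targets ARF10, ARF16 and ARF17, with 306, 375 and 428 RP30M in root tips and 1500, 1892 and 1445 RP30M in shoot apices.

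Among phase change families, 8 of 11 entries of miR156, miR157 and miR172 were higher in root tips, 2 were lower and 1 was not called, near the 65.8% higher and 16.2% lower over all entries, with a median of 1.54 against 2.56, and 4 of the 8 held under the 3 scalings. These act in the sequence in which miR156 and miR157 restrain SPL transcription factors in the juvenile phase. The entry miR156f-5p had 25560, 25747 and 45354 RP30M in root tips and 5482, 4480 and 4313 RP30M in shoot apices, or 2.71 ± 0.31 log2 units. The entry miR157b-3p had 51539, 54599 and 90611 RP30M in root tips and 18033, 22612 and 16580 RP30M in shoot apices, or 1.75 ± 0.31 as deposited and 0.11, not called, with TMM scaling. The entry miR172d-3p, of the family that represses AP2-like genes, had 56.6, 112 and 142 RP30M in root tips and no read in shoot apices, at least 118-fold higher in root tips. Both entries lower in root tips, miR156f-3p and miR157c-3p, are star strands. The direction did not follow the strand, since the 3p strands miR156b-3p, miR156c-3p and miR157b-3p were called higher as deposited, at 1.19, 1.54 and 1.75.

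Leaf and organ growth families had the lowest share called, with 5 of 13 entries of miR159, miR319, miR396 and miR164 higher in root tips, 2 lower and 6 not called and a median of 0.32, against 65.8% higher, 16.2% lower and a median of 2.56 over all entries. The entry miR319b, a regulator of CIN-type TCP genes, had 6160, 8121 and 9624 RP30M in root tips and 6349, 6597 and 5852 RP30M in shoot apices, and its difference of 0.32 was not called as deposited and was called at -1.32 with TMM scaling. The entry miR396a-5p, which restrains growth-regulating factors (GRFs), had 2423, 2920 and 3886 RP30M in root tips and 353, 345 and 368 RP30M in shoot apices, or 3.08 ± 0.34. The miR164 entries lower in root tips were the guides miR164b-5p, at -1.75 ± 0.34, and miR164c-5p, at -3.20 ± 0.35, which act on CUC boundary genes.

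Families of the silencing machinery had 4 of 8 entries higher in root tips, 2 lower and 2 not called, with a median of 1.93, against 65.8% higher, 16.2% lower and a median of 2.56 over all entries. The entry miR403-3p, which targets AGO2, had 8727, 10680 and 14332 RP30M in root tips and 182, 228 and 143 RP30M in shoot apices, or 5.92 ± 0.33. The entry miR173-5p, the trigger of TAS1 and TAS2 siRNAs, had 10905, 14646 and 18379 RP30M in root tips and 526, 339 and 451 RP30M in shoot apices, or 5.05 ± 0.31. The entry miR168b-5p, which targets AGO1, had 2532, 2270 and 3234 RP30M in root tips and 3771, 5794 and 5440 RP30M in shoot apices, a difference of -0.89 ± 0.31 (adjusted p = 0.00453). The DCL1-targeting miR162b-3p differed by -0.34 ± 0.31 and was not called as deposited, but was called at -0.47 with scaling to miRNA reads, at -1.98 with TMM scaling and at -0.54 without root tip replicate 3.

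Lineage-specific or less conserved families held 34 of the tested entries, of which 28 were higher in root tips, 2 lower and 4 not called, with a median of 4.16, against 65.8% higher, 16.2% lower and a median of 2.56 over all entries. Of the 28, 25 held under the 3 scalings. The lower ones were miR850 and miR472-3p, the second from a family acting on disease resistance genes. Root tip levels of this list summed to 448165 to 763995 RP30M and shoot apex levels to 91560 to 108887 RP30M. The entry miR158b had 9887, 10261 and 15803 RP30M in root tips and 141, 156 and 106 RP30M in shoot apices, or 6.46 ± 0.34. The entry miR822-5p had 8715, 10048 and 14581 RP30M in root tips and 244, 167 and 214 RP30M in shoot apices, or 5.71 ± 0.33. Among 14 entries in none of the lists, 12 were higher in root tips and 2 were not called, with a median of 5.72, against the same shares over all entries. Entries that reached 30 RP30M in root tips alone, such as miR158a-5p and miR829-5p of the lineage-specific list, were all called higher. Neither set was split by that route, so these counts and medians are no support for a difference of the set.

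Summed into families by number, 43 of 62 families were higher in root tips (69.4%), 10 were lower (16.1%) and 9 were not called, and with TMM scaling the counts were 34 and 20. The largest family differences were miR5028 at 10.96, miR846 at 8.76, miR829 at 7.73, miR172 at 6.47 and miR781 at 6.34 in one direction, and miR398 at -4.93, miR408 at -4.90, miR166 at -3.29, miR171 at -2.64 and miR165 at -2.40 in the other. All 10 were called under the 3 scalings.

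Products that carry the name of 1 precursor often differed from each other in their organ balance. There were 24 such pairs from 22 precursor names, and 7 pairs had opposite calls, 14 had the same call and 3 had 1 product called. The median absolute difference between the products of a pair was 2.80 log2 units, and 15 pairs differed by more than 2. The entry miR157c-5p was 3.90 ± 0.34 higher in root tips, with 2887, 3108 and 5288 RP30M in root tips and 281, 295 and 169 RP30M in shoot apices. Its partner miR157c-3p had 0, 3.99 and 7.65 RP30M in root tips and 329, 431 and 229 RP30M in shoot apices, or -6.51 ± 0.51. The strands of miR156f likewise stood at 2.71 for 5p and -4.16 for 3p, with miR156f-3p at 103, 116 and 145 RP30M in root tips and 2200, 2568 and 1804 RP30M in shoot apices. The other opposite pairs were those of miR160c, miR164b, miR164c, miR168b and miR472, and under TMM scaling miR164b-3p turned to -0.21 and miR160c-3p lost its call at 0.16. For miR824, which targets AGL16, the 5p guide was higher by 6.14 ± 0.39 while the 3p strand, at 2121, 2763 and 3739 RP30M in root tips and 2245, 3632 and 2469 RP30M in shoot apices, differed by 0.04 as deposited and was called lower at -1.60 with TMM scaling. The overlapping products miR161.1 and miR161.2 differed by 1.58 and 8.56. Loci can share a mature sequence, so strands of 1 name need not come from 1 locus.

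**Figure D3:**
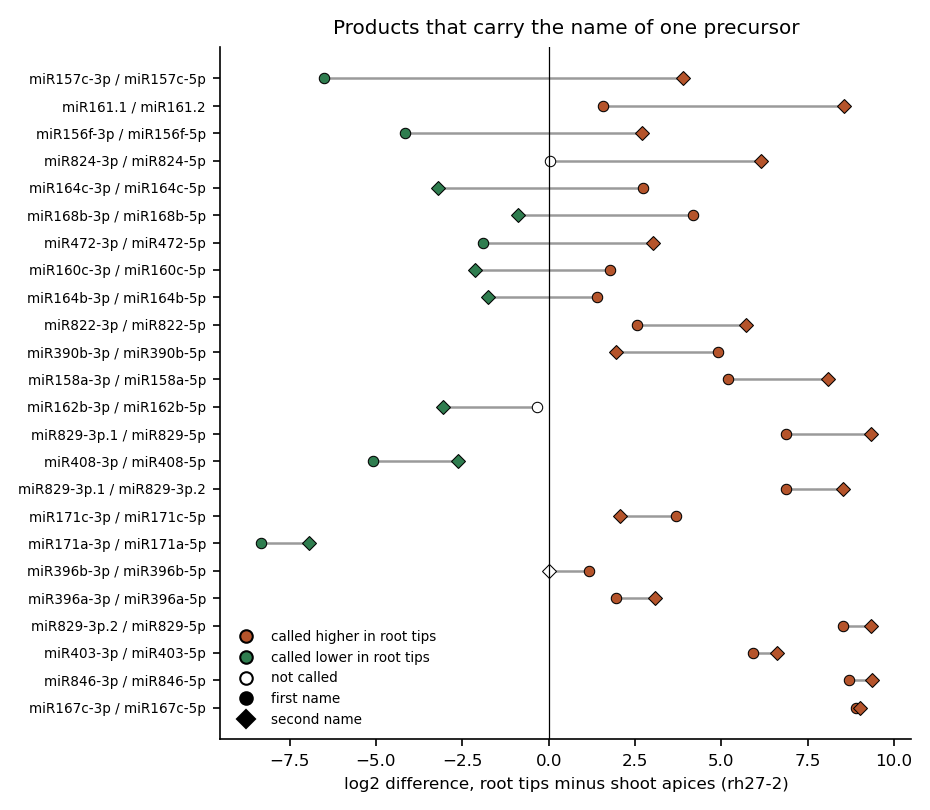
Log2 differences, root tips minus shoot apices, for the 24 pairs of tested products with 1 precursor name; circles are the first name and diamonds the second, filled by call. The 7 pairs with opposite calls cross the zero line, the widest being miR157c from -6.51 to 3.90.

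In the mRNA libraries 20 of 325 precursor loci had enough counts to test, of which 8 were higher and 8 lower in root tips (edgeR), against 36.8% higher and 36.2% lower among all 20288 genes. With scaling to total counts instead of TMM the median of all genes moved from 0.03 to 0.36 and the counts were 10355 higher and 5707 lower. Of 15 pairs of a precursor and a tested product with its name, 7 had the same call and 3 opposite calls. The MIR157c locus was lower in root tips, with a difference of -5.89 ± 0.51 and 0.0515, 0.0504 and 0 CPM in root tips and 2.46, 2.80 and 1.79 CPM in shoot apices, as was miR157c-3p but not miR157c-5p. The MIR171c locus was higher in root tips by 4.56 ± 0.70, on 40 counts in root tips and 1 in shoot apices, as were both miR171c products, of which miR171c-5p lost its call with TMM scaling. The MIR824 and MIR447a loci were lower in root tips, at -1.84 and -1.60, whereas miR824-5p and miR447a.2-3p were higher by 6.14 and 5.72. Levels of these loci were low, and reads of overlapping or antisense genes could not be told apart in the counts.

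Target mRNAs were read from the same organs. Of 91 listed target genes of 28 families, 80 were tested, 41 were higher in root tips and 25 were lower, with a median of 0.35 against 0.03 over all genes, and total-count scaling gave 46 and 23. Over all 20288 genes, 36.8% were called higher in root tips and 36.2% lower. For the 7 family groups called lower in root tips that had tested targets, 16 of 22 targets were called higher, 5 lower and 1 was not called. For the 14 called higher as deposited, 15 of 47 targets were called lower, 22 higher and 10 were not called. Of these 14, miR156, miR390, miR395, miR396 and miR397 did not hold under the 3 scalings, at -0.62 to 0.38 with TMM scaling. Among them miR396 was called lower with TMM scaling, so the counts of targets by direction depend on scaling.

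All 3 listed miR398 targets were higher in root tips: CSD1 and CSD2, copper/zinc superoxide dismutases, and CCS, their copper chaperone. The CSD2 gene AT2G28190 had 65.4, 62.0 and 65.4 CPM in root tips and 14.5, 13.3 and 13.1 CPM in shoot apices, or 2.24 ± 0.08 log2 units (adjusted p = 5.16e-07). The 4 listed miR408 targets were higher as well, led by the laccase gene LAC3 (AT2G30210) with 125, 134 and 126 CPM in root tips and 0.409, 0.659 and 0.428 CPM in shoot apices, or 7.95 ± 0.14. The other 3, LAC12, LAC13 and the plantacyanin gene ARPN, differed by 2.86, 0.99 and 2.11.

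The miR171 targets HAM1, HAM2 and HAM3 were higher in root tips by 1.01, 0.88 and 0.57, and the miR160 targets ARF10, ARF16 and ARF17 by 1.96, 1.23 and 1.39. The HD-ZIP III targets of miR165 and miR166 were mixed: HB8 was higher by 1.11 and REV by 0.28, HB15 and PHV were lower at -0.82 and -1.21, and PHB differed by 0.24 (adjusted p = 0.0859). The REV call was lost without root tip replicate 1 or 2, at adjusted p = 0.0539 and 0.0533. Among miR164 targets, CUC1 and CUC2 were lower in root tips, at -5.31 and -1.60, and NAC1, which acts in lateral root formation, was higher by 3.64.

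The 3 listed miR167 targets were lower in root tips, where miR167c was higher. ARF6 (AT1G30330) had 114, 113 and 110 CPM in root tips and 454, 465 and 511 CPM in shoot apices, or -2.08 ± 0.08, and ARF8 and IAR3, an auxin-conjugate hydrolase, stood at -1.65 and -2.02. The SPL genes SPL2, SPL9, SPL11 and SPL13A were lower in root tips as well, at -1.79, -4.03, -1.18 and -3.65, while the summed miR156 family was higher as deposited (1.74) and not called with TMM scaling (-0.072). The SMZ and SNZ targets of miR172 were lower at -2.22 and -6.41, whereas AP2 was higher by 1.31 and TOE2 differed by -0.14 (adjusted p = 0.388). Several target groups instead ran in the direction of their family as deposited, although the miR396 family was called lower, at -0.62, with TMM scaling. Family sums pool both strands, so a sum need not follow the strand that acts on a target. For miR393 and miR169 the only entries tested were the 3p strands miR393b-3p and miR169f-3p. The 4 auxin receptor genes TIR1, AFB1, AFB2 and AFB3 were higher in root tips by 0.66 to 0.78, GRF1, GRF3 and GRF4 by 3.04, 1.14 and 0.91 with GRF2 lower at -1.12, and NF-YA3, NF-YA8, NF-YA9 and NF-YA10 by 1.06 to 3.09. The AGO2 gene was higher by 0.81 and TAS3 by 1.68, and TAS1A, TAS1B and TAS1C differed by 0.20, 0.02 and 0.07 without a call. The TAS2 call, at 0.32, was lost with DESeq2 (adjusted p = 0.0551), with the replicate number as a block (0.0850), without any 1 of the root tip libraries (0.0538 to 0.110) and without shoot apex replicate 2 (0.0818), while TAS1A was called at 0.53 with total-count scaling. AGO1 was lower in root tips at -0.45 as was its regulator miR168b-5p, and it lost the call with total-count scaling at -0.13.

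**Figure D4:**
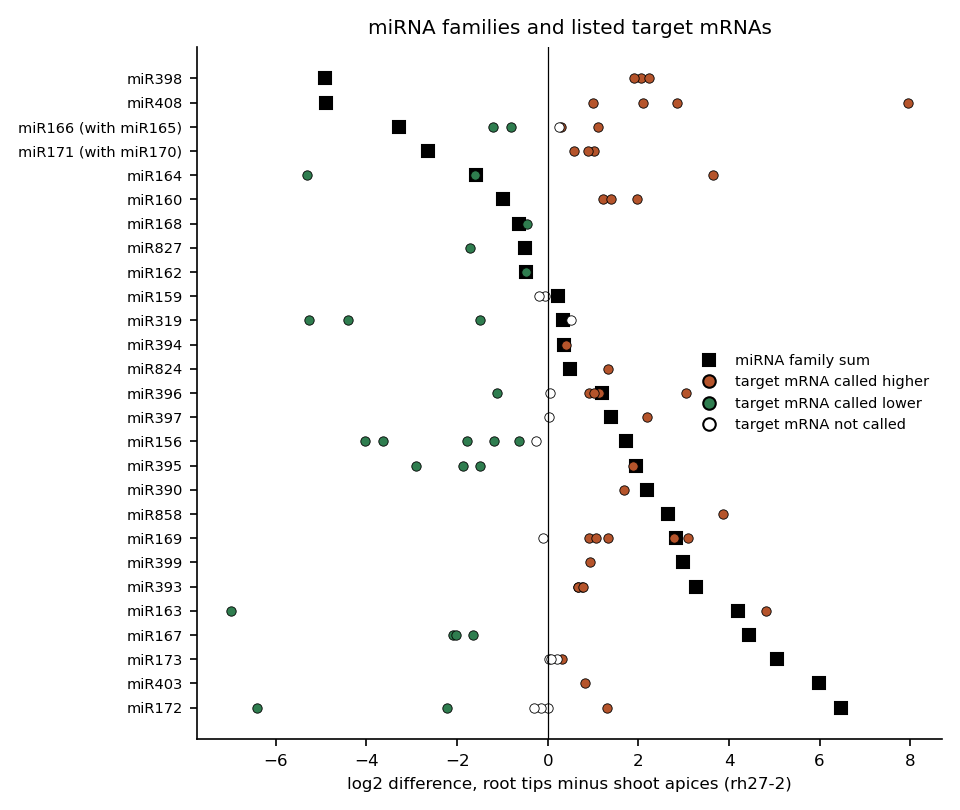
Log2 differences, root tips minus shoot apices, of miRNA families (squares, summed RP30M) and of their listed target mRNAs (circles, filled by edgeR call) in rh27-2. Targets of miR398, miR408, miR171 and miR160 lie on the side opposite to their family, while those of miR393 and miR403 lie on the same side. Family sums pool both strands.

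The wild-type libraries gave the same comparison with no library shared. Of 128 entries tested in wild type, 87.5% were called, 92 of them higher in root tips (71.9%) and 20 lower (15.6%), against 68 and 45 with TMM scaling. Tested in both genotypes were 109 entries, and for 82 of them (75.2%) the mutant and the wild type were called in the same direction, 68 higher and 14 lower in root tips. These kept differences were 91.1% of the 90 such entries called in rh27-2 and 87.2% of the 94 called in wild type. Among all entries tested in rh27-2, 41 passed the filter through root tips alone and were all called higher. Another 5 passed through shoot apices alone, of which 4 were called lower. Passing through 1 organ alone favours a call, and the kept entries were not split by that route. Part of these shares may therefore come from the filter. A further 7 entries were called in rh27-2 alone, 11 in wild type alone, 1 in opposite directions and 8 in neither. With scaling to miRNA reads 86 were kept, 65 higher and 21 lower in root tips. With TMM scaling 83 were kept, 49 higher and 34 lower. Of the entries tested in wild type, 10 were called in opposite directions as deposited and with TMM scaling. The sign was the same for 101 of the 109 entries, and the Pearson correlation of the 2 sets of differences across entries was 0.945, a description over entries that share their libraries. Large differences were kept on both sides. The entry miR5028 stood at 10.96 in rh27-2 and 9.29 in wild type, miR158a-3p at 5.20 and 5.49, miR173-5p at 5.05 and 5.23, miR171a-3p at -8.33 and -9.63 and miR398c-3p at -4.94 and -6.01, and the test of the difference between genotypes called only miR5028 of these, which it lost under another scaling.

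The difference between genotypes was tested directly as an interaction over 12 libraries, the organ difference of rh27-2 minus that of wild type. Of 132 entries, 40.2% were called, 13 with a higher value in rh27-2 (9.85%) and 40 with a lower one (30.3%). These counts turned with scaling: 23 and 21 when scaled to miRNA reads, and 24 and 6 with TMM scaling, as the median moved from -0.70 by 0.72 and by 1.11. Without wild-type root tip replicate 3 the lower count was 25. Called in the same direction under the 3 scalings were 18 entries, 12 higher and 6 lower, or 13.6%. Among them miR780.1, miR172d-5p, miR8182, miR8184 and miR399a reached 30 RP30M in the libraries of 1 group alone. Passing the filter in that way favours an interaction, so these calls are no support for one. Of the 82 kept entries, 27 were called in the interaction, 23 lower and 4 higher, but 4 under the 3 scalings, 1 lower and 3 higher.

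**Figure D5:**
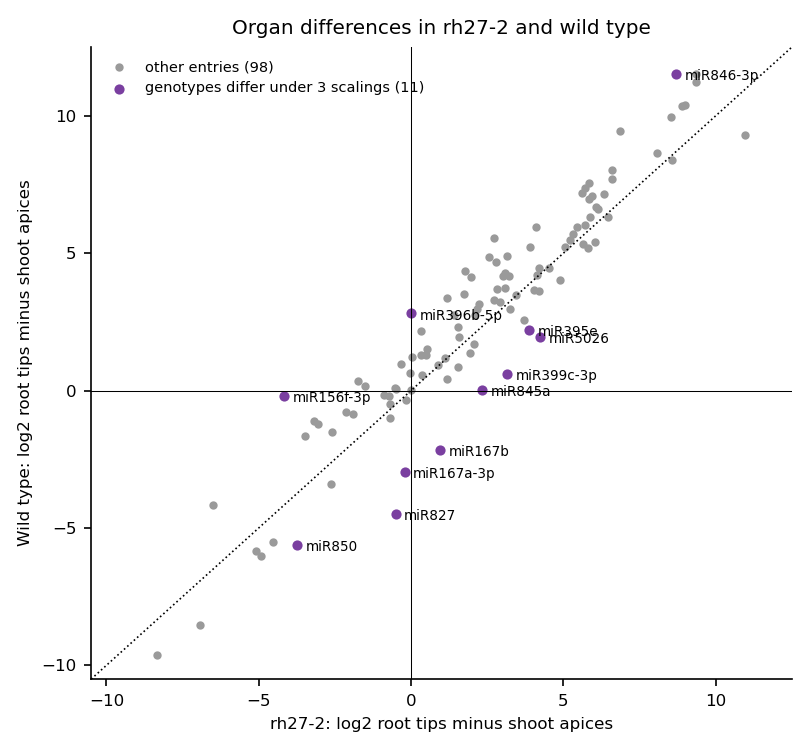
Log2 differences, root tips minus shoot apices, in rh27-2 (x axis) and wild type (y axis) for the 109 entries tested in both; the dotted line marks equal values and named points are the 11 whose genotypes differ under the 3 scalings. The sign is the same for 101 entries, and miR167b lies in a quadrant of opposite signs.

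Among the 18 entries, the phosphate-linked miR827 was called lower in root tips of wild type (-4.50) and, as deposited, was not called in rh27-2. Its 220, 387 and 377 RP30M in rh27-2 root tips and 435, 564 and 377 RP30M in rh27-2 shoot apices stood beside 40.6, 71.4 and 40.6 RP30M in wild-type root tips and 503, 1650 and 1746 RP30M in wild-type shoot apices, and the interaction was 3.99 ± 0.56 (adjusted p = 2.91e-08). The star strand miR167a-3p had 301, 295 and 367 RP30M in rh27-2 root tips and 365, 447 and 307 RP30M in rh27-2 shoot apices, against 341, 294 and 377 RP30M in wild-type root tips and 3463, 2668 and 1924 RP30M in wild-type shoot apices. The organs overlap in the mutant but not in wild type, and the interaction was 2.75 ± 0.47 (adjusted p = 2.70e-06). The 1 entry with opposite calls was miR167b, with 271, 381 and 564 RP30M in rh27-2 root tips and 219, 189 and 192 RP30M in rh27-2 shoot apices, against 562, 433 and 838 RP30M in wild-type root tips and 1972, 3578 and 2642 RP30M in wild-type shoot apices. Its interaction was 3.13 ± 0.49, while its own call in rh27-2, 0.96 ± 0.35 (adjusted p = 0.00872), was lost without root tip replicate 3 (adjusted p = 0.0508) and turned to -0.68 with TMM scaling.

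Other entries were called in the mutant and not in wild type. In rh27-2, miR845a, a family known for targeting retrotransposons in pollen, had 105338, 163515 and 141664 RP30M in root tips and 28608, 29840 and 22667 RP30M in shoot apices, a call that TMM scaling ended at 0.69. In wild type it had 355, 385 and 434 RP30M in root tips and 241, 671 and 341 RP30M in shoot apices, so that the interaction of 2.29 ± 0.46 goes with a level that was far below the mutant's in every wild-type library. The star strand miR156f-3p had 103, 116 and 145 RP30M in rh27-2 root tips and 2200, 2568 and 1804 RP30M in rh27-2 shoot apices, against 987, 664 and 1034 RP30M in wild-type root tips and 1603, 817 and 761 RP30M in wild-type shoot apices. Its interaction was -3.98 ± 0.48 (adjusted p = 8.25e-10). For miR399c-3p wild-type root tips had 1430, 1353 and 1472 RP30M and wild-type shoot apices 968, 1399 and 582 RP30M, and the interaction with the mutant values given above was 2.53 ± 0.49.

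The entries miR399a and miR397b were too low in rh27-2 to be tested there alone, and miR399a was called lower in wild-type root tips at -2.97. The phosphate-linked miR399a had 26.6, 27.9 and 21.0 RP30M in rh27-2 root tips and 3.89, 0 and 3.94 RP30M in rh27-2 shoot apices, against 5.30, 8.11 and 3.69 RP30M in wild-type root tips and 38.5, 85.0 and 37.1 RP30M in wild-type shoot apices, an interaction of 6.14 ± 0.78. The entry miR397b, of a family acting on laccases, had 29.9, 41.9 and 68.8 RP30M in rh27-2 root tips and 18.4, 13.9 and 13.4 RP30M in rh27-2 shoot apices, against 0, 1.62 and 1.85 RP30M in wild-type root tips and 16.0, 46.6 and 12.1 RP30M in wild-type shoot apices, an interaction of 4.98 ± 0.77. As deposited, both entries had root tips above shoot apices in rh27-2 and below them in wild type, with no overlap. The summed miR397 family of rh27-2 turned to -0.35 with TMM scaling. The entry miR3932b-5p had 25.0, 31.9 and 26.8 RP30M in rh27-2 root tips and 15.6, 13.9 and 15.0 RP30M in rh27-2 shoot apices, against 0, 3.24 and 0 RP30M in wild-type root tips and 77.0, 300.3 and 171 RP30M in wild-type shoot apices. The entry miR8184 was listed with 49.9, 79.8 and 82.2 RP30M in rh27-2 root tips and no read in rh27-2 shoot apices, and in wild type with 1.85 RP30M in 1 root tip library.

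In the other direction, miR396b-5p, a regulator of GRF genes, was higher in root tips of wild type by 2.80 and was not called in rh27-2 as deposited, where TMM scaling called it lower at -1.63. It had 2125, 2843 and 4271 RP30M in rh27-2 root tips and 2891, 3154 and 2771 RP30M in rh27-2 shoot apices, against 7452, 6886 and 10072 RP30M in wild-type root tips and 686, 2134 and 1036 RP30M in wild-type shoot apices. The organs overlap in the mutant, and the interaction was -2.79 ± 0.47 (adjusted p = 2.44e-06). The entry miR846-3p kept its direction at 8.70 in rh27-2 and 11.53 in wild type, with an interaction of -2.83 ± 0.46. The low entries miR780.1, miR172d-5p and miR8182 had 1.99 to 5.74, 1.99 to 9.56 and 8.32 to 19.9 RP30M in rh27-2 root tips, against 77.7 to 159, 53.5 to 91.8 and 126 to 175 RP30M in wild-type root tips, with interactions of -5.09, -3.80 and -3.36. In shoot apices these 3 were at 0 in every library of either genotype, apart from 1.58 RP30M of miR780.1 in 1 rh27-2 library. The remaining 3 were miR5026, at 2.29 ± 0.56, miR395e, at 1.67 ± 0.57, and miR850, at 1.87 ± 0.78, all 3 of which kept their direction. The miR850 call, at adjusted p = 0.0478, was lost with the replicate number as a block (0.0624), with no filter (0.122), with no trend in the variance model (0.0593) and without each of 7 single libraries.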

How the data were processed

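Small RNA and mRNA libraries of Arabidopsis root tips and shoot apices were used, 3 per group. Small RNA values were deposited as a signal scaled to 30000000 reads (RP30M). The total behind it is not given in the sources used here, and an entry missing from a file was taken as 0. The deposited mRNA files hold raw counts per locus. Bowtie2, TopHat2, HTSeq and edgeR and the TAIR10 build are named in the submitters' processing notes, without roles. Dividing by the smallest step gave whole reads to within 0.001 for every value, and from these the depths. Intervals and floors cover counting error only.

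Differences were fitted with limma 3.58.1 (trend, robust) in R 4.3.3 on log2(RP30M + 1), which understates low entries, for entries at 30 RP30M or more in at least 3 libraries. The variance prior had infinite degrees of freedom for 99 of 111 entries, so those p-values rest on a pooled variance. The mRNA counts were tested with edgeR 4.0.16 (quasi-likelihood, TMM, minimum count 10), and DESeq2 1.42.0 was an alternative. Scripts were tested on simulated data. The p-values of limma, edgeR and DESeq2 were adjusted by Benjamini-Hochberg over all features tested, at 0.05. Those of the share of miRNA reads were not adjusted. The TMM scaling of small RNA was added after seeing the data. Replicates differed by more than sampling noise, so none was a copy.

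Members, role lists and targets were chosen with earlier results of these data known. The entries named are, among called entries with a mean of 60 RP30M and no overlap, the 10 largest each way, the 5 most abundant per organ, the 10 strongest interactions, and up to 4 per list; 5 families each way; and up to 4 targets per family. Other named entries and the precursors were chosen after their values were seen. Symbols were taken from RefSeq (assembly TAIR10.1).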

Additional observations from a re-analysis of the deposited data

Results flagged for a closer look

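The organ difference, root tips minus shoot apices, differed between rh27-2 and wild type for the entries below, by the interaction term over 12 libraries (limma, adjusted p under 0.05); values are rh27-2 minus wild type in log2 units. Higher in rh27-2 under all 3 scalings were miR3932b-5p at 7.48, miR399a at 6.14, miR8184 at 5.63, miR397b at 4.98, miR827 at 3.99, miR167b at 3.13, miR167a-3p at 2.75, miR399c-3p at 2.53, miR845a at 2.29, miR5026 at 2.29, miR850 at 1.87 and miR395e at 1.67. Lower under all 3 scalings were miR780.1 at -5.09, miR156f-3p at -3.98, miR172d-5p at -3.80, miR8182 at -3.36, miR846-3p at -2.83 and miR396b-5p at -2.79. Of all these, miR399a, miR8184, miR780.1, miR172d-5p and miR8182 passed the filter through the libraries of 1 group alone, which favours a call. Another 34 entries were called lower in rh27-2 as deposited but not under every scaling, of which the 25 followed through the alternatives were miR164c-3p at -2.83, miR829-3p.1 at -2.60, miR160c-3p at -2.55, miR822-3p at -2.30, miR396a-3p at -2.19, miR846-5p at -2.16, miR164b-5p at -2.10, miR164c-5p at -2.08, miR169f-3p at -1.90, miR829-5p at -1.87, miR319b at -1.86, miR162b-5p at -1.85, miR166g at -1.81, miR157b-3p at -1.75, miR5650 at -1.69, miR166b-5p at -1.69, miR822-5p at -1.66, miR167c-3p at -1.47, miR160c-5p at -1.34, miR157c-5p at -1.31, miR162b-3p at -1.29, miR396a-5p at -1.20, miR824-3p at -1.18, miR403-3p at -1.16 and miR165b at -1.09. The 1 entry called higher as deposited but not under every scaling was miR5028 at 1.67. Their cause was not tested.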

How the results depend on the processing

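The counts of organ differences kept their direction under a pseudocount of 10, a filter on the mean, no trend, thinning and each left-out library, where rh27-2 entries ran from 71 to 76 higher and 18 to 22 lower. With no filter, the higher calls were 145 entries and 84 families in rh27-2 and 143 entries in wild type, and 133 differences were kept, since more low entries were tested. TMM scaling raised the lower calls to 37 entries and 20 families in rh27-2 and 45 entries in wild type. Interaction counts were 23 higher and 21 lower when scaled to miRNA reads and 24 and 6 with TMM scaling; the lower count ran from 25 to 48 over left-out libraries, and 25 was without wild-type root tip replicate 3. The share of miRNA reads differed by -0.10 without miR161.1, and by -0.098 to 0.706 over left-out libraries.

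Under TMM scaling the sign turned for miR159a (-1.32), miR161.1 (-0.060), miR164b-3p (-0.21), miR167b (-0.68), miR319b (-1.32), miR395f (-0.53), miR396b-5p (-1.63) and miR824-3p (-1.60), of which miR159a, miR319b, miR396b-5p and miR824-3p were called lower. Values near 0 also turned for miR396b-5p when scaled to miRNA reads (-0.13) or thinned (-0.053), for miR824-3p when scaled to miRNA reads (-0.10), and over left-out libraries for miR159b-3p (-0.17 to 0.22), miR396b-5p (-0.26 to 0.25) and miR824-3p (-0.17 to 0.25). With total-count scaling MYB65 (0.14), MYB33 (0.27) and TOE2 (0.19) turned, and over left-out libraries MYB33 (-0.13 to 0.066), TOE2 (-0.23 to 0.058), TAS1C (-0.010 to 0.21), TAS1B (-0.10 to 0.25) and LAC4 (-0.046 to 0.099) did; none of these turned values was called. The causes were not tested.

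Replicate numbers did not pair the libraries: same-numbered root tip and shoot apex libraries of rh27-2 had correlated deviations of -0.11, -0.03 and -0.09. With the replicate number as a block, rh27-2 gave 73 higher and 18 lower entries, 42 and 9 families, 12 and 40 interactions, 79 kept differences, and 7090 and 7076 genes; wild type gave 89 and 17. The block also ended the calls of TAS2 and of the miR850 interaction. The share test then gave p = 1.0 by exact sign flips. The planned count tests (edgeR and DESeq2) on small RNA reads were not run. The files hold a scaled signal, from which whole reads were recovered for depths, shares and thinning but not for these tests. Depth limits entries near the floors of 1.85 RP30M in root tips and 0.876 RP30M in shoot apices.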
